A study of Homo sapiens with 4 samples.

Results

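Pericentromeric H3K9me3 regions are described here in BJ-HELT cells, a line of human foreskin fibroblasts made immortal with hTERT and the SV40 early region, analysed at passage 10 to 11. They were chosen by position alone: a region belonged if its midpoint lay within 6 Mb of a fixed, rounded centromere midpoint of 1 of 21 autosomes. Chromosome 19 was left out. The rule took 610 of the 3177 regions on these autosomes, 19.2% (95% Wilson interval 17.9 to 20.6%, counting error only, regions taken as independent). The list held 5211 regions in all. The other 2567 regions of the same 21 autosomes served as the comparison. All groups were the same untreated line: 2 libraries were H3K9me3 immunoprecipitates and 2 were input DNA. The deposited values were a single list for the 4 libraries, with 1 whole-number count per region, so replicate error cannot be given for any value below, and depth per library is unknown. No input value per region was given, so the counts were not set against input or copy number here. The tests below take the chromosome as the unit and speak of variation between chromosomes, not between libraries or cultures.

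H3K9me3, trimethylation of lysine 9 on histone H3, is the mark of constitutive heterochromatin. It is written around centromeres mainly by the SUV39H enzymes and bound by HP1 proteins, which compact the repeated DNA on either side of the centromere. The centromere itself is built on alpha satellite repeats and carries the histone variant CENP-A. In hg19, the build of the list, centromeres and the large heterochromatin blocks of some chromosomes are gaps without sequence, so no read can be placed in them. Positions below are on hg19 and counted from 1. No sequence, gene or repeat annotation of that build was used here, and the regions are therefore given by position only.

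Pericentromeric regions were few in number but held most of the autosomal count. They covered 6.13 Mb of the 17.6 Mb covered on the 21 autosomes (34.7%) and held 891650 of 1348853 counts (66.1%). The other regions covered 11.5 Mb with 457203 counts. Per kb covered, this came to 145.5 counts near centromeres and 39.7 elsewhere. A small group of regions made up much of the sum: the 10 regions with the highest counts held 45.9% of the pericentromeric count on 8.92% of its length. Without those 10, pericentromeric regions still held 51.3% of the remaining autosomal count. Chromosomes 10, 4 and 21 together held 49.4% of the pericentromeric count, and on the other 18 autosomes the pericentromeric share of the count was 53.5%.

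The typical pericentromeric region was modest in size. Lengths near centromeres had a median of 5400 bp (quartiles 3400 and 10000 bp), against 3800 bp (2600 and 5000 bp) elsewhere. The median count was 177 (quartiles 108 and 428.75) near centromeres and 109 (89 and 145) elsewhere. The median density, in counts per kb of a region's length, was 35.3 counts per kb (30.4 and 46.8) against 30.0 (27.0 and 36.7). The upper end of the range differed more than the middle: the 90th percentile of density was 105.9 near centromeres and 50.9 elsewhere.

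**Figure D1:**
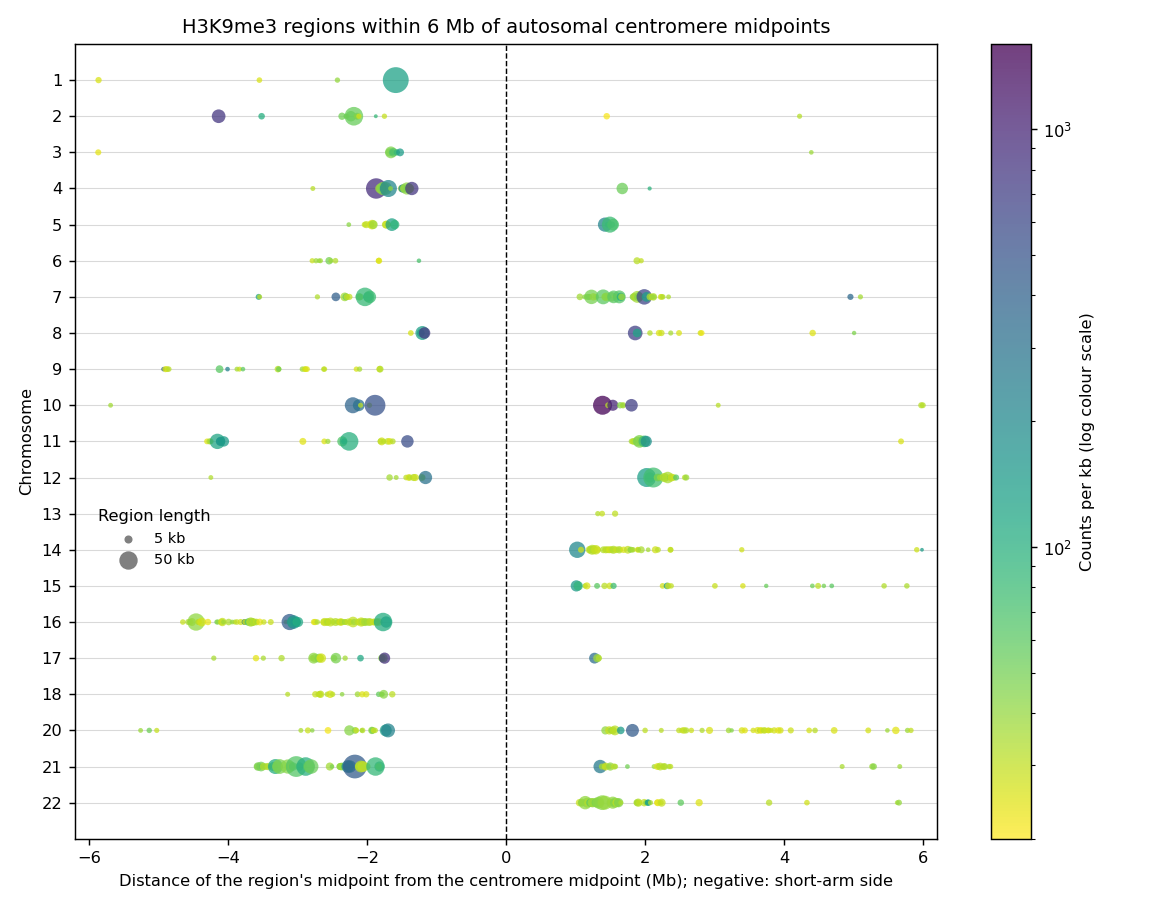
Each point is 1 of the 610 pericentromeric regions, placed by its distance in Mb from the centromere midpoint (horizontal axis, short-arm side negative) and by chromosome (vertical axis); point area grows with region length and colour gives counts per kb on a log scale. No point lies within 1 Mb of a midpoint, dark (dense) points sit mostly at the inner edges, and chromosomes 1, 9, 16 and 18 have points on the short-arm side only.

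On nearly every chromosome tested, more H3K9me3 regions lay within 6 Mb of the centromere midpoint than in the flanks from 6 to 12 Mb. The test compares the window with these near flanks, not with the whole chromosome. In the 16 autosomes that are not acrocentric, the 12 Mb within 6 Mb of the midpoint held 27.1 ± 23.2 regions per chromosome (SD, n = 16 chromosomes), and the flanks from 6 to 12 Mb on both sides held 9.25 ± 16.1. Window and flanks span the same distance but need not hold the same length of sequence, since gaps can fall in either. On chromosomes 1, 9, 16 and 18, the stretch without regions over the midpoint reached into the long-arm flank. The mean difference was 17.8 ± 17.4 regions, with more in the inner window on 15 of 16 chromosomes (exact paired permutation test with signs flipped, two-sided, p = 6.1e-05, adjusted p = 0.00024 by Benjamini-Hochberg over 8 tests). The exception was chromosome 20, with 63 regions inside and 65 in its flanks. Covered length was 268 ± 197 kb inside and 40.1 ± 75.8 kb in the flanks, higher inside on 15 of 16 (exact permutation p = 6.1e-05, adjusted p = 0.00024). Here chromosome 9 was the exception, with 79.4 kb inside and 80.0 kb in the flanks. With a window of 10 Mb and flanks from 10 to 20 Mb, the mean difference was 8.19 regions and did not pass (exact permutation test, adjusted p = 0.21), whereas covered length passed under each alternative tried.

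Covered length and count were highest at the inner edge, and from 5 to 16 Mb each 1 Mb step held less than any step between 1 and 5 Mb. None of the 21 autosomes had a region within 1 Mb of its midpoint. Between 1 and 2 Mb there were 250 regions, from all 21 chromosomes, covering 3116 kb with 600992 counts, which is 67.4% of the pericentromeric count on 50.9% of its length. Without chromosome 10, the largest contributor there, that distance held 414476 counts. From 2 to 3 Mb there were 208 regions with 178951 counts, and from 3 to 4 Mb 81 regions with 60610. Between 4 and 5 Mb the 46 regions held 48238 counts, but 26529 of these came from a single region of chromosome 2. From 5 to 6 Mb only 25 regions with 2859 counts remained, and the flanks from 6 to 12 Mb held 26334 counts in 182 regions. Farther out the values were higher again in places, with 22499 counts between 16 and 17 Mb and 27185 counts over 457.4 kb between 19 and 20 Mb. The count per kb covered was 192.9 between 1 and 2 Mb, 95.5 between 2 and 3 Mb, 85.5 between 3 and 4 Mb, 140.7 between 4 and 5 Mb and 32.7 between 6 and 12 Mb. The median densities per region spanned less, with 38.4 counts per kb between 1 and 2 Mb, 33.8 between 2 and 3 Mb and 29.5 between 6 and 12 Mb.

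**Figure D2:**
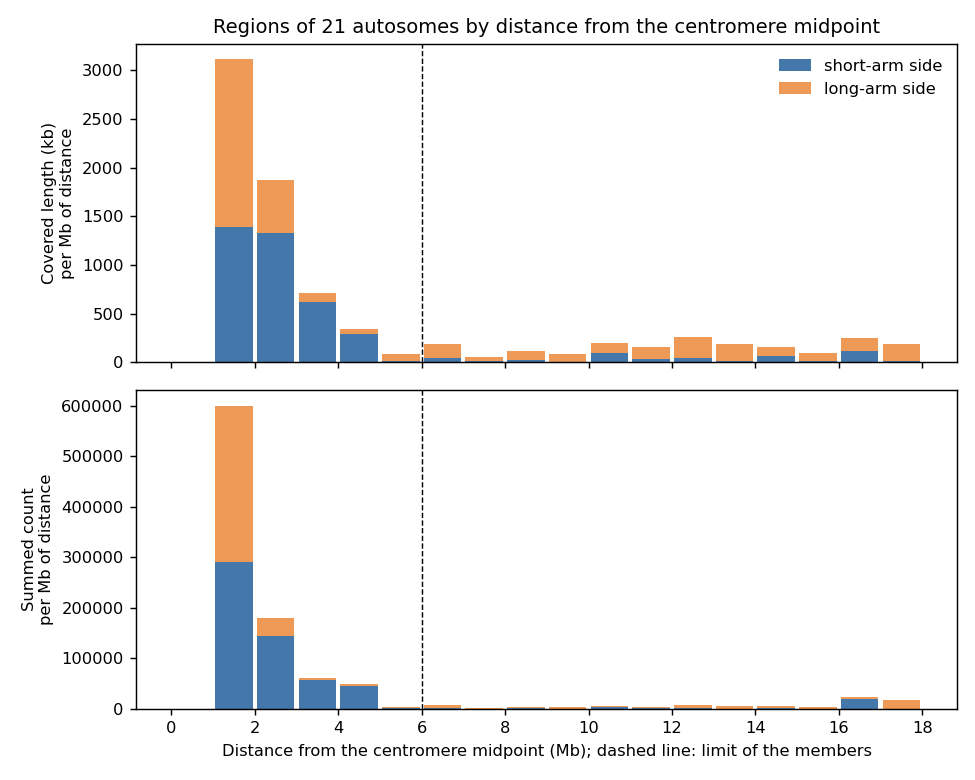
Covered length in kb (top) and summed count (bottom) per 1 Mb of distance from the centromere midpoint, summed over 21 autosomes, with the short-arm and long-arm sides stacked; the dashed line is the 6 Mb limit. Both fall from the bar between 1 and 2 Mb (3116 kb and 600992 counts) to the bar between 5 and 6 Mb (85.8 kb and 2859 counts).

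The limit of 6 Mb passes through a sparse stretch of regions with low counts. The region just inside it lay on chromosome 10 at chr10:46994201-46998400, with 136 counts over 4.2 kb (32.4 counts per kb). Just outside, a chromosome 20 region of 6.4 kb (chr20:34014201-34020600) had 172 counts (26.9 counts per kb). The next chromosome 10 region outside (chr10:47037201-47042600) had 152 counts over 5.4 kb. These values differ little on either side of the limit.

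Within a chromosome, regions near the centromere were longer than those elsewhere. The test used 19 autosomes with at least 5 regions in each set, which left out chromosomes 1 and 13. The average of the medians was 5774 ± 2189 bp near centromeres (SD, n = 19 chromosomes) and 3332 ± 581 bp elsewhere. The mean log2 ratio was 0.73 ± 0.63, or 1.66-fold, and the pericentromeric median was the higher one on 16 of 19 chromosomes (paired permutation test with 100000 sign flips, two-sided, p = 0.00023, adjusted p = 0.00046). Chromosome 4 stood highest, with a median of 12400 bp near its centromere and 3200 bp elsewhere. It was followed by chromosomes 21 (7800 against 2800 bp), 22 (7600 against 3400 bp) and 5 (7500 against 3000 bp). On chromosome 20 both medians were 4200 bp. On chromosomes 6 and 9 the pericentromeric median was the lower one, at 2800 against 3400 bp and 3300 against 3800 bp.

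Long regions showed the same contrast. Of the 610 pericentromeric regions, 156 (25.6%) measured 10 kb or more, against 95 of 2567 (3.70%) elsewhere. Of the 251 long regions of these autosomes, 62.2% were thus pericentromeric (95% Wilson interval 56.0 to 67.9%, counting error only). The interval takes regions as independent although many are neighbours, so it is likely too narrow. Per chromosome the share of long regions was 26.6 ± 18.1% near centromeres and 4.03 ± 6.27% elsewhere (SD, n = 19). The difference of 22.5 ± 16.5 percentage points had the same direction on 17 of 19 chromosomes (permutation test as above, p = 0.00011, adjusted p = 0.00029). Chromosome 4 again stood highest, with 13 of 18 pericentromeric regions long. Chromosomes 11, 12, 17, 18 and 21 had long regions near the centromere and none elsewhere, with 26 on chromosome 21 and 11 on chromosome 11. The reverse held on chromosome 9, with none of 22 pericentromeric regions and 11 of its other 107 regions long, and chromosomes 6 and 13 also had no long region near the centromere.

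Density differed less than length. The average of the medians was 37.9 ± 6.59 counts per kb near centromeres and 33.6 ± 4.95 elsewhere (SD, n = 19), a mean log2 ratio of 0.17 ± 0.25 or 1.13-fold. It was higher near the centromere on 13 of 19 chromosomes (permutation test, p = 0.0042, adjusted p = 0.0067), and lower on chromosomes 4, 9, 12, 14, 15 and 18. The call was lost with a sign test over the same chromosomes (exact, adjusted p = 0.27) and with a window of 10 Mb (permutation test, adjusted p = 0.068). Chromosome 3 showed the widest gap, 55.0 against 30.2 counts per kb, from 8 pericentromeric regions. By ratio, chromosome 10 followed with 40.3 against 28.2, and chromosome 2 with 50.3 against 37.5.

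**Figure D3:**
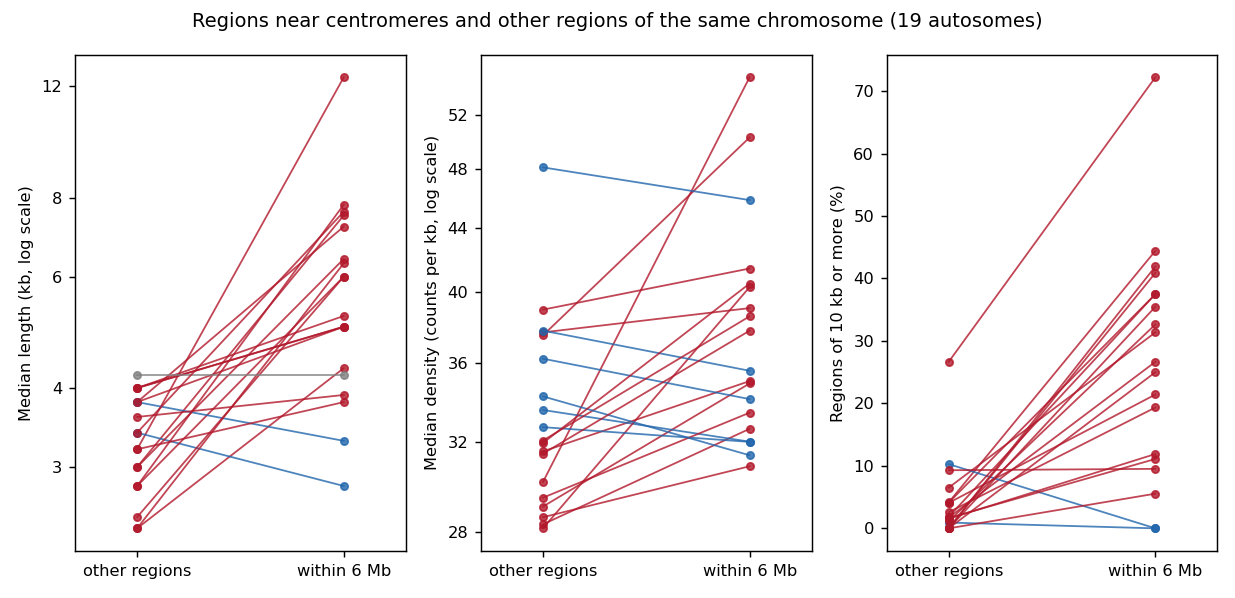
Each line joins the other regions and the pericentromeric regions of 1 of 19 autosomes, for median length in kb (left, log axis), median density in counts per kb (middle, log axis) and the share of regions of 10 kb or more in percent (right); red lines go up, blue lines down and grey is equal. Length goes up on 16 of 19 chromosomes, density on 13 and the share of long regions on 17.

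Taken over all lengths, length and density were tied together differently in the 2 sets. Across pericentromeric regions, which are neighbours on 21 chromosomes of the same libraries, the rank correlation of density with length was 0.29, whereas across the other regions it was -0.53. Split at 10 kb, the signs were the same in both sets. At 10 kb or more the rank correlation was 0.55 near centromeres and 0.61 elsewhere. Under 10 kb it was -0.20 near centromeres and -0.64 elsewhere. No region in the list had fewer than 27 counts, so a short region needs a high density to be listed. The part of this floor in these values was not tested. Regions of 1 kb or less numbered 4 near centromeres and 112 elsewhere. In the class from 20 to 50 kb, the median density was 112.3 counts per kb for 58 pericentromeric regions and 55.6 for 26 others. From 2 to 5 kb it was 32.4 for 238 regions and 29.7 for 1543. Between regions of exactly equal length, the median count was higher near centromeres at 30 of 33 lengths from 1.4 to 8.2 kb with at least 5 regions in each set, with a median ratio of 1.10 (range 0.92 to 1.29).

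Regions of very high density were long near centromeres and short elsewhere. A density of 200 counts per kb or more was reached by 31 pericentromeric regions (5.08%) on 14 chromosomes and by 24 other regions (0.93%) on 12 chromosomes. The 31 had a median length of 31.2 kb and a median count of 13229, and 27 of them were 10 kb or more. The 24 were short, with a median of 1200 bp, and had 393.5 counts in the median. Of these, 12 were 1 kb or less and 1 was 10 kb or more. The 31 regions held 66.6% of the pericentromeric count on 17.1% of its length. This comparison is a description over regions and has no test. Without regions of 200 counts per kb or more, the pericentromeric mean was 58.7 counts per kb covered and that of other regions 36.4.

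**Figure D4:**
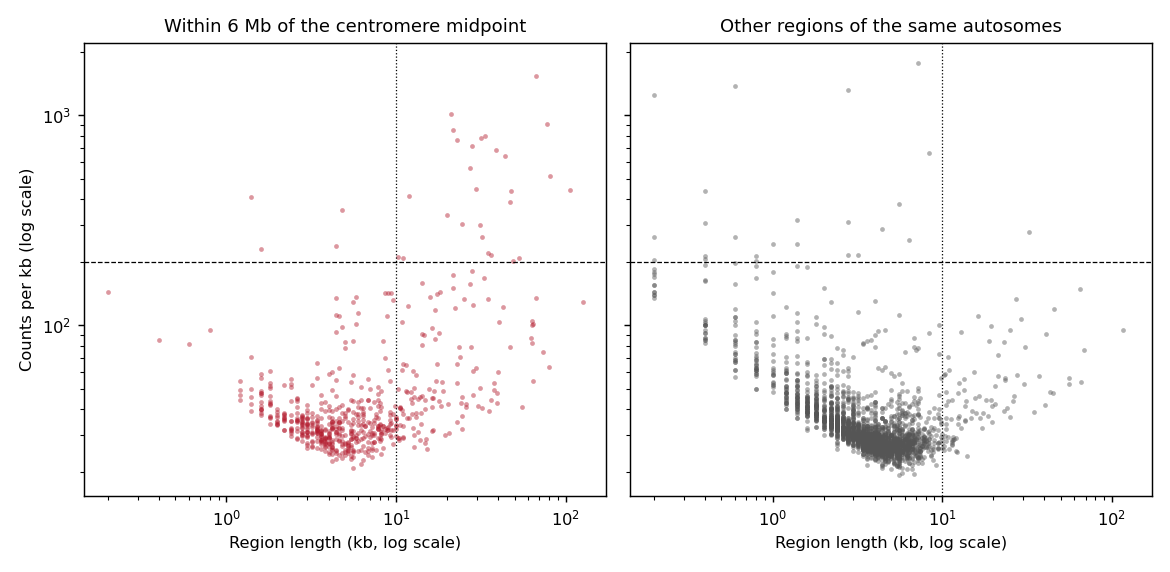
Counts per kb (log axis) against region length in kb (log axis) for 610 pericentromeric regions (left) and 2567 other regions of the same autosomes (right); the dashed line marks 200 counts per kb and the dotted line 10 kb. The upper right corner holds 27 regions on the left and 1 on the right.

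The highest counts lay on chromosomes 10, 4 and 21, on both arms of some centromeres. These counts were not set against input or copy number, so their order need not be that of the mark itself. On chromosome 10, 103161 counts fell in chr10:42354801-42421400 (66.6 kb, 1549 counts per kb), 1.39 Mb to the long-arm side of the midpoint. It was followed outward by chr10:42525801-42546800 with 21301 counts (1014 counts per kb) and by chr10:42790401-42818400 with 19943 counts (712 counts per kb). Its short-arm side held chr10:39074401-39155000 with 41374 counts (513 counts per kb). Among the 16 pericentromeric regions of chromosome 10, 6 reached 200 counts per kb, the most of any chromosome, yet their median was 40.3, so the chromosome combined a few very dense regions with many ordinary ones.

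On chromosome 4, nearly all of the pericentromeric count lay on the short-arm side. There, chr4:49093001-49170400 held 70290 counts (77.4 kb, 908 counts per kb) and chr4:49628601-49660200 held 24647 (31.6 kb, 780 counts per kb). Its short-arm side had 16 regions with 115658 counts and its long-arm side 2 with 1289. On chromosome 21, chr21:10772001-10877800 held 46705 counts over 105.8 kb (441 counts per kb), and chr21:9941001-10021200, 80.2 kb long, held 5080 (63.3 counts per kb). These 2 regions of the same chromosome side thus differed far more in density than in length. The longest pericentromeric region, 125.8 kb at chr1:121350401-121476200, had 128.9 counts per kb, above the 90th percentile of pericentromeric regions but below the 441 of the chromosome 21 region.

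The remaining high counts came from single regions on other chromosomes. Chromosome 7 had 27951 counts at chr7:61967001-62010600 (641 counts per kb) and chromosome 8 had 26481 at chr8:46838801-46877600 (682.5 counts per kb), both on the long-arm side. Chromosome 16 had 20964 at chr16:33863001-33910800 (439 counts per kb), 3.11 Mb from the midpoint on the short-arm side. Chromosome 17 had 18488 at chr17:22241601-22263200, a region of 21.6 kb with 856 counts per kb. A chromosome 2 region, chr2:89848401-89881800, held 26529 counts (794 counts per kb) although it lay 4.13 Mb from the midpoint, farther out than the other 9 of the 10 highest.

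The regions nearest to the midpoint were often denser than the other pericentromeric regions. The 34 regions nearest to the midpoint on their side of their chromosome were 5.57% of pericentromeric regions and held 37.9% of the count. Their median density was 124.9 counts per kb, against 35.0 for the other 576, and 22 of the 34 were 10 kb or more. Of the 34, 26 were denser than the median of the pericentromeric regions of their chromosome, 15 of 17 on the short-arm side and 11 of 17 on the long-arm side. The range was wide on both sides. On the short-arm side it ran from 29.3 counts per kb on chromosome 2 (chr2:92248601-92251600, 88 counts) to 856 on chromosome 17. On the long-arm side it ran from 20.9 on chromosome 2 (chr2:95445601-95451200, 117 counts) to 1549 on chromosome 10. Chromosome 8 had high values on both sides (761 and 682.5 counts per kb), as did chromosome 10 (513 and 1549). Chromosome 11 did not, with 561 on the short-arm side and 35.3 on the long-arm side.

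Between the innermost regions of both arms lay a stretch with none. Of 17 chromosomes with regions on both sides of the midpoint, 12 had a free stretch of 3.0 to 3.2 Mb. The others had 5.91 Mb (chromosome 3), 8.84 Mb (18), 11.2 Mb (16), 18.6 Mb (9) and 21.1 Mb (1). Chromosomes 1, 9 and 16 are known for large blocks of heterochromatin on the long arm beside the centromere. Their first long-arm regions began at 142535401, 65792001 and 46463201, beyond the 6 Mb limit, so the rule took only their short-arm side. The same held for chromosome 18, whose first long-arm region began at 24203601. On chromosomes 13, 14, 15 and 22, which are acrocentric and have a short arm of repeats and ribosomal RNA genes, all pericentromeric regions were on the long-arm side. Such short arms are mostly unassembled in hg19, and the list held no short-arm region on these chromosomes. Their absence from the list cannot be read as absence of the mark.

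No difference between the arm sides passed its test. The short-arm side held 325 regions (3652 kb, 539009 counts) and the long-arm side 285 (2476 kb, 352641 counts). Per kb covered, the short-arm side had 147.6 counts and the long-arm side 142.4. Over the 16 autosomes that are not acrocentric, the short-arm side had 17.9 ± 20.8 regions and the long-arm side 9.19 ± 13.7 (SD, n = 16). The short-arm side had more on 11 of 16, and the mean difference, long minus short, was -8.69 ± 26.5 regions (exact permutation test, two-sided, p = 0.22, adjusted p = 0.29). Of these 11, chromosomes 1, 9, 16 and 18 had no long-arm region inside the window, where gaps in hg19 can fall. Their place among the 11 cannot be read as a lack of the mark on that side. Counted within 4.5 Mb of the nearest region on each side, a setting added after seeing the data, the mean difference was -1.94 regions with the long-arm side higher on 7 of 16 chromosomes (exact permutation test, adjusted p = 0.86). Chromosome 16, with 93 regions on the short-arm side and none on the other, weighed most on this mean, which was -3.07 without it. The long-arm side had more regions on chromosomes 7 (38 against 13), 20 (45 against 18), 8 (11 against 4), 12 (17 against 11) and 10 (10 against 6).

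Length and density by arm side could be compared on the 7 chromosomes with at least 5 regions on each. The mean log2 ratio, long over short, was -0.14 ± 1.11 for median length (SD, n = 7, exact permutation test, p = 0.88, adjusted p = 0.88) and -0.19 ± 1.06 for median density (exact permutation test, p = 0.59, adjusted p = 0.68). The smallest p possible with 7 chromosomes is 0.016. Single chromosomes went far in either direction. On chromosome 5 the long-arm side was longer and denser, with medians of 23800 against 7200 bp and 84.5 against 30.8 counts per kb. On chromosome 10 the short-arm side was, with 13700 against 5000 bp and 170.7 against 39.3 counts per kb, although the densest pericentromeric region of the 610 lay on its long-arm side. On chromosome 21 the short-arm side had 11400 against 4200 bp and 47.4 against 34.5 counts per kb. Chromosome 11 had a median of 6000 bp on both sides.

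Chromosomes differed widely in the share of their count, not set against input, that was pericentromeric. The number of regions ran from 3 on chromosome 13 and 4 on chromosome 1 to 62 on chromosome 21, 63 on chromosome 20 and 93 on chromosome 16. The share of a chromosome's count held near its centromere had a median of 61.4% and was over 50% on 14 of 21 chromosomes. It was highest on chromosomes 21 (95.4%), 11 (92.9%), 7 (89.4%), 12 (88.5%) and 10 (86.9%). On chromosome 10 this came from 6.90% of its regions, and on chromosome 8, 56.8% of the count came from 6.12%. It was lowest on chromosomes 13 (1.27%), 9 (7.27%), 6 (9.79%), 3 (12.2%) and 18 (12.4%). On chromosome 18 a single region far from the centromere, chr18:105201-112400, held 12755 counts, and on chromosome 9 one at chr9:69946001-70010600 held 9612. Chromosomes 9 and 18 were the only 2 of the 21 on which the count per kb covered was lower near the centromere, at 45.8 against 65.4 and 33.7 against 100.2.

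**Figure D5:**
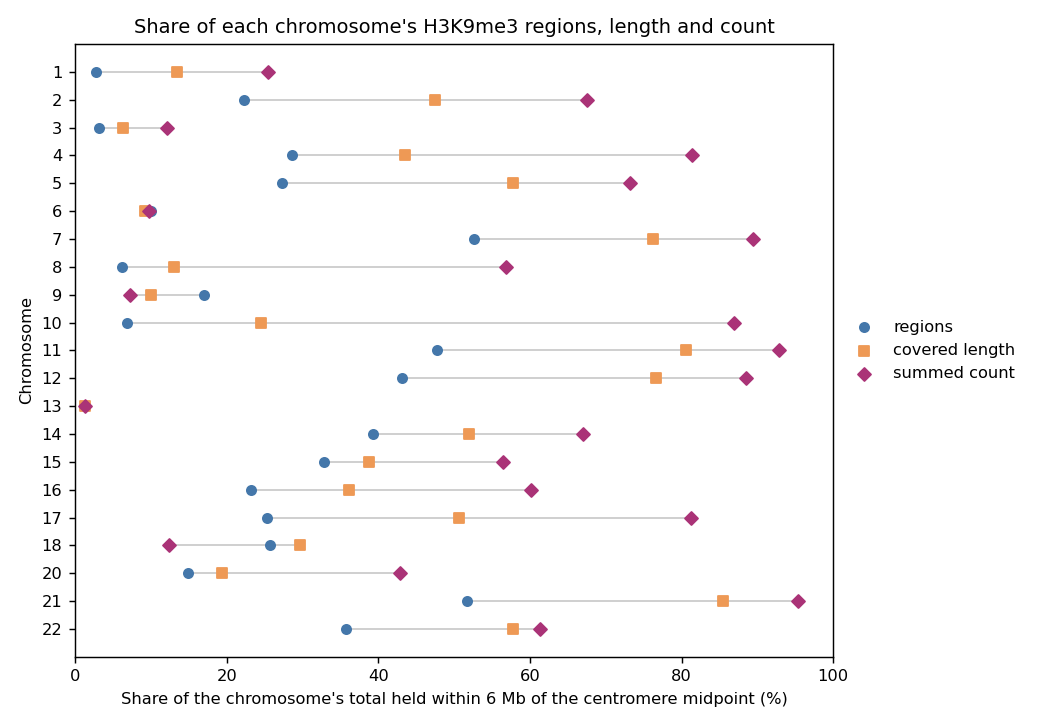
For each of 21 autosomes (vertical axis), the share in percent of its regions (circles), covered length (squares) and summed count (diamonds) that lay within 6 Mb of the centromere midpoint. The diamond lies at 95.4% on chromosome 21 and at 1.27% on chromosome 13, and lies left of the circle on chromosomes 6, 9, 13 and 18.

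Pericentromeric regions lay closer together than other regions, a description without a test. The median gap between neighbours on a chromosome was 20.8 kb (quartiles 4.2 and 87.0 kb) near centromeres and 122.2 kb (26.05 and 537.5 kb) elsewhere. When regions under 100 kb apart were joined, 535 of the 610 (87.7%) fell into 80 clusters and 75 stood alone, against 62.0% of other regions in clusters. The cluster with the most regions was on chromosome 16 (chr16:34233201-35285800), where 49 regions covered 372.8 kb, or 35.4% of the span, with 18425 counts. Next came 35 regions on chromosome 14 (chr14:19197201-20187800), which covered 21.2% of their span with 6603 counts. Chromosome 22 had 28 regions at chr22:16053001-16652600 that covered 63.2% of the span with 15466 counts. A second chromosome 16 cluster of 25 regions (chr16:32837801-33617000) covered 16.9%, and 21 regions on chromosome 21 (chr21:9418801-10215600) covered 58.4% with 29599 counts. Their median densities were 32.2, 32.5, 39.6, 33.9 and 49.7 counts per kb in that order. The clusters with the most regions were thus not those with the highest density, and none of the 5 was on chromosome 4 or 10.

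Along a chromosome, length and density both varied with distance from the midpoint in either direction. On the 18 chromosomes with at least 10 pericentromeric regions, the rank correlation of length with distance was negative on 14 and had a median of -0.22 (range -0.68 to 0.24). For density it was negative on 12, with a median of -0.11 (range -0.66 to 0.51). Chromosome 8 (-0.66, 15 regions) and chromosome 5 (-0.64, 18 regions) had the lowest values for density. Chromosome 2 had the highest (0.51, 14 regions) and also holds the dense region 4.13 Mb out. These values describe neighbouring regions of the same libraries and have no test.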

How the data were processed

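The authors deposited 1 list of H3K9me3 regions for the whole series, giving each region's position and 1 whole-number count. The list has no header, and its form is why the number is taken to be ChIP reads per region. The submitters' processing notes name Bowtie, SICER, hg19 and GRCh37. Versions, settings, pooling of libraries and the handling of multiply mapped reads: not given in the sources used here. All starts and ends fit a grid of 200 bp. Centromere midpoints were values rounded to 1 Mb, not computed from the list. Density is counts per kb. Tests were paired over chromosomes (signs flipped, 100000 resamples, exact up to 16 chromosomes), two-sided, with Benjamini-Hochberg adjustment over 8 tests and a threshold of 0.05. The test code was tried on simulated data. Named regions were the 10 with the highest counts, the 5 longest, the 5 densest, the innermost per side at the ends of the density range, the 5 largest clusters and those at the 6 Mb limit. Others were named after their values were seen. The regions, rules and tests were chosen with earlier results of these data known. Python 3.11.15, numpy 2.4.6, pandas 2.3.3, scipy 1.17.1 and matplotlib 3.10.9 were used.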

Additional observations from a re-analysis of the deposited data

How the results depend on the processing

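No paired analysis was possible because libraries have no separate values, which also means that none could be left out. Of 196 alternatives, 178 kept the direction and the side of the threshold, or stayed within 1.5 times or the counting interval. Most alternatives left out a single chromosome. The 178 include uncalled differences that stayed uncalled. They also include the number of pericentromeric regions with chromosome 19 added to the others, which could not change. With a window of 10 Mb, the mean log2 ratio of density was 0.13 (permutation test, adjusted p = 0.068) and the difference in number 8.19 (exact permutation test, adjusted p = 0.21). An exact sign test gave the density ratio of 0.17 an adjusted p of 0.27. The cause was not tested. Of the 3 uncalled differences between arm sides, that in number stayed negative under its 22 alternatives (-11.07 to -1.94), and those in length and density changed sign under 4 and 2 of 16. For length the ratio became 0.13 with regions at or above the list's median count, 0.080 without the acrocentric chromosomes or without chromosome 21, and 0.082 without chromosome 10. For density it became 0.0014 with regions at or above the median count and 0.13 without chromosome 10. The pericentromeric share of covered length was 28.3% with a window of 3 Mb, 37.3% with 10 Mb and 32.5% with chromosome 19 among the other regions. That of the count was 57.8%, 67.3% and 63.5%. Measured within 4.5 Mb of the nearest region on each side, an alternative added with the data in view that counts the nearest region by construction, the shares were 40.5% and 71.0%. Joining regions under 500 kb apart gave 45 clusters. Leaving out acrocentric chromosomes was not run for the tests that never held them.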
